A study of Mus musculus with 6 samples.

Results

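The 31 genes described here are genes of the unfolded protein response, the programme that cells use against misfolded protein in the endoplasmic reticulum (ER). They were chosen by symbol from a list of ER stress and chaperone genes, and all 31 were found among the 32285 features of each count matrix. Ddit3 has 2 feature identifiers, and the second of these had no count in any library. The counts come from single-cell RNA sequencing of mouse lung immune cells, isolated on magnetic beads against the leukocyte surface protein CD45. Normal lung (labelled Ctrl) and lung infiltrated by acute myeloid leukaemia (AML) gave 3 libraries each, numbered 1 to 3. The lungs of both groups were perfused and digested with collagenase and DNase I. Leukaemia model, strain, age and sex of the mice are not named in the labels. They also do not say whether the libraries of a group come from separate animals, so the p-values below measure only the spread between these libraries, which may be technical.

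Unfolded protein in the ER is sensed by a trio of membrane proteins: the kinase and RNase IRE1 (gene Ern1), the kinase PERK (Eif2ak3) and the membrane-bound transcription factor ATF6. IRE1 splices the mRNA of the transcription factor XBP1, PERK slows translation and favours translation of ATF4, which raises Ddit3 (CHOP) and Trib3, and cleaved ATF6 and spliced XBP1 raise genes for chaperones, protein disulfide isomerases and ER-associated degradation. Cells that secrete much protein, such as plasma cells, are known for high levels of these genes, and macrophages, neutrophils and dendritic cells also use the IRE1 branch.

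Promoters of chaperone genes are known to carry the ER stress response element (ERSE), which is bound by ATF6 together with NF-Y and by XBP1. The sites found in the 250 bases before the RefSeq transcription start are shown for the genes that carried one. Promoters came from RefSeq (GRCm38.p6) and matched 27 of the 31 genes by symbol, and Derl1, Atf6, Hyou1 and Manf had no match. The motif searched on both strands was CCAAT, then 9 bases of any kind, then CCACG. It occurred in 8 of the 27 genes (29.6%) and in 35 of the 27025 genes with a promoter in the table (0.130%). The related ERSE-II, ATTGG, 1 base of any kind and CCACG, occurred in 1 of the 27 genes, Herpud1, and in 10 genes of the table (0.0370%), and does not overlap the letters of an ERSE there. The XBP1 motif TGACGTGG occurred in 0 of the 27 and in 163 genes (0.603%). The ATF4 motif TTGCATCA occurred in Herpud1 and in 248 genes (0.918%). Each site is written 5′ to 3′ on the strand of its gene with the motif letters in capitals, and a site on the opposite strand reads CGTGG before ATTGG. The lines give, in order, Hspa5 (chr2:34772020-34772048, plus strand), Calr (chr8:84847060-84847108, minus), the site of Hsp90b1 farther from its start (chr10:86705623-86705671, minus) and the nearer one (chr10:86705518-86705566), Canx (chr11:50325785-50325833, minus), Pdia6 (chr12:17266476-17266524, plus), Dnajc3 (chr14:118937812-118937860, plus), Creld2 (chr15:88819505-88819553, plus), Syvn1 (chr19:6046517-6046565, plus) and the ERSE-II of Herpud1 (chr8:94386362-94386402, plus).
Hspa5: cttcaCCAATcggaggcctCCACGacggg
Calr: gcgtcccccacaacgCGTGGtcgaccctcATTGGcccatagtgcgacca
Hsp90b1, farther: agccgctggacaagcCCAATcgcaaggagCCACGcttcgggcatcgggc
Hsp90b1, nearer: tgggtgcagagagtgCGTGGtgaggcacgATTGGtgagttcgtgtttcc
Canx: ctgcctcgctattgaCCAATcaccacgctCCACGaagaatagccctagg
Pdia6: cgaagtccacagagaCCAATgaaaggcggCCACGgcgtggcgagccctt
Dnajc3: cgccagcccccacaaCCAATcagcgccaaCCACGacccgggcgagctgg
Creld2: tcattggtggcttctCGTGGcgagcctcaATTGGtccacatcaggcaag
Syvn1: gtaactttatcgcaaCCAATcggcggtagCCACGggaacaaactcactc
Herpud1: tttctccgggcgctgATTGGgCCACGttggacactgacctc
The Hspa5 site, printed with shorter flanks, overlaps an annotated exon of that gene (chr2:34771970-34777547, plus strand). A match describes letters and shows neither binding nor a cause of any level below. The absence of a match says only that these letters are not in this window.

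The whole 250-base promoters of 2 of these genes are given for context, Creld2 because its level differed in AML lung below, and Herpud1 because it alone carried both the ERSE-II and the ATF4 motif. They lie at chr15:88819396-88819645 and chr8:94386179-94386428 on the plus strand, with motif letters in capitals.
Creld2: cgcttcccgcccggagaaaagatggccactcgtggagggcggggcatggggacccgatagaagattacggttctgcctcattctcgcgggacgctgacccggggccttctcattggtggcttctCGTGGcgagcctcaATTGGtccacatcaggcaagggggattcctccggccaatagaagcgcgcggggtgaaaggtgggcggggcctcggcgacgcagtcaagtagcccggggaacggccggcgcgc
Herpud1: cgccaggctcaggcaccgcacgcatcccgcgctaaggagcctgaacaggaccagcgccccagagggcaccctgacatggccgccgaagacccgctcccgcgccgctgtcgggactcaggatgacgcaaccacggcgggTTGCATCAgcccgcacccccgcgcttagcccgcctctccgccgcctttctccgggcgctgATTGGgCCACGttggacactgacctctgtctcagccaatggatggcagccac
Of the 8 genes with an ERSE, 4 had lower values in every AML library than in any normal library in the nonclassical monocytes described below, with a median log2 change of -0.64. Of the 18 measured genes with a promoter and no ERSE, 8 did, with a median of -0.33, and 14.7% of all genes tested did. These counts are a description and the difference between the sets was not tested.

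Library totals ran from 43913245 to 66513826 UMIs (unique molecular identifiers, 1 per captured RNA molecule), and 69600 cells were used after filters. Depth per cell differed, with a median per barcode of 9354, 6102 and 2740 UMIs in the normal libraries (replicates 1 to 3) and of 9381, 3979.5 and 1067 UMIs in the AML libraries. AML replicate 3 was the shallowest library and stood apart in the markers of other cells that its classes carried, so the counts of lower genes in each class are given with and without it. Each pair of libraries shared between 1 and 118 cell barcodes. Cells were clustered without the 31 genes, and 24 of 30 clusters were named from marker genes. Each class name below means cells like that type (nonclassical monocyte-like and so on), since the names were rebuilt here. Of the unnamed clusters, 4 entered the comparisons with enough cells and are given by number: cluster 5 (cycling genes with alveolar macrophage markers), cluster 17 (markers of both conventional dendritic cell types), cluster 18 (B cell markers, with Mzb1 and Fcrl5 among its leading genes) and cluster 23 (cycling T cells by their markers). Levels are CPM, the UMIs of a gene per 1000000 UMIs of a class in a library, scaled with edgeR's TMM factors, and are given in the order of replicates 1, 2 and 3.

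In normal lung, alveolar macrophages had the highest mean level of 7 of the 10 chaperone and foldase genes, and neutrophils the lowest mean of 8. T cells had the lowest mean of the other 2, Hspa5 and P4hb, and overlapped there with other classes, B cells among them. The sensor genes were each highest in a different cell class. Each class was compared with the mean of the other classes by edgeR's quasi-likelihood test, with library as a block, over 11 classes that had enough cells and 30 of the 31 genes (Trib3 was too low). Alveolar macrophages were higher for 23 genes and lower for 4, where 40.5% of all genes tested were higher and 20.3% lower. They held the highest level of 13 of the 30 genes. Classical monocytes were higher for 19 and lower for 2 (30.5% and 19.8% of all genes), and cluster 17 was higher for 16 and lower for 4 (23.9% and 16.0%). T cells were lower for 21 genes and higher for 1 (22.7% and 32.1%).

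The other classes lay between these. Nonclassical monocytes were higher for 13 genes and lower for 3 (27.1% and 15.4% of all genes), and cluster 5 was higher for 13 and lower for 7 (27.9% and 26.5%; 18 and 5 with no scaling factors). B cells were higher for 5 and lower for 16 (33.5% and 22.0%; 6 and 11 with no scaling factors), and cluster 18 was higher for 5 and lower for 13 (17.4% and 13.1%). NK cells were higher for 5 and lower for 12 (28.1% and 17.9%; 8 and 4 with no scaling factors). Endothelial cells, carried through the bead selection, were higher for 5 and lower for 11 (32.8% and 24.4%; 9 and 9 with no scaling factors). Neutrophils were higher for 14 and lower for 13 (29.6% and 33.3%), but this split depends on scaling: with no scaling factors it was 3 and 18, and only 5 of the 14 kept their sign under all 3 scalings. The scaling moved the median of all genes in neutrophils from -0.95 to -0.29 on the log2 scale.

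**Figure D1:**
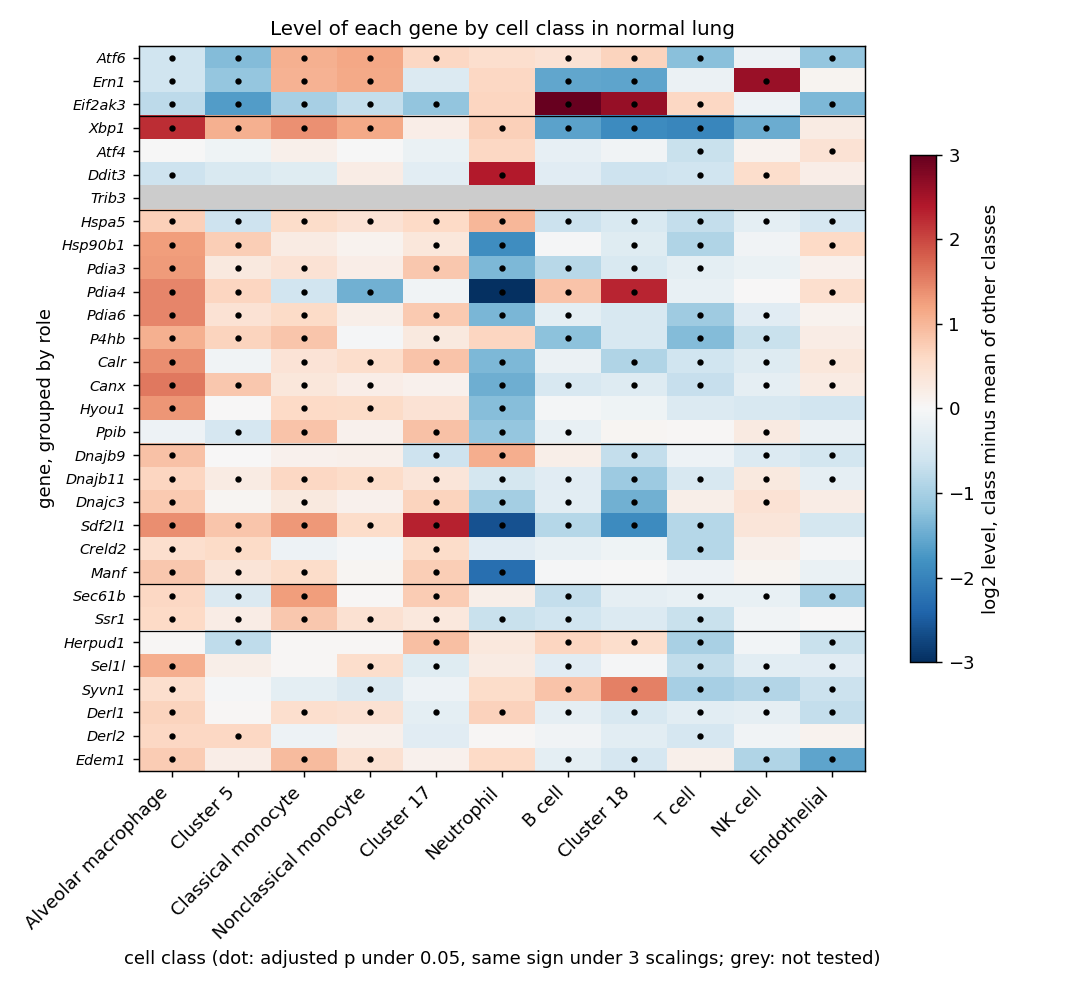
Log2 level of each of the 31 genes (vertical axis, grouped by role) in each of 11 cell classes of normal lung (horizontal axis), as the class minus the mean of the other classes; dots mark an adjusted p under 0.05 with the same sign under all 3 scalings and grey cells were not tested. The alveolar macrophage column is mostly red (23 genes higher), and the T cell column mostly blue (21 genes lower).

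The sensor genes divided the classes. Eif2ak3, the gene for PERK, stood at 609, 600 and 625 CPM in B cells and at 498, 410 and 534 CPM in cluster 18, against 130, 128 and 154 CPM in T cells. The 3 B cell values lay above those of every other class, and the log2 level of B cells over the mean of the other classes was 2.98 (SE 0.109, adjusted p 4.36e-18). Of the 11 classes compared, NK cells held the highest Ern1, the gene for IRE1, at 372, 442 and 353 CPM (log2 2.59, SE 0.126, edgeR adjusted p 1.52e-15). Group 2 innate lymphoid cells, left out for too few cells (8, 19 and 41 in the normal libraries), stood higher. Their Ern1 was 3137, 953 and 1178 plain CPM (no scaling factors) in normal lung, from 215, 133 and 262 UMIs. Of the 11 classes, B cells and cluster 18 had the lowest Ern1, with 29.8, 19.8 and 37.1 CPM in B cells (log2 -1.55). Nonclassical and classical monocytes came next after NK cells for Ern1, at 153, 143 and 175 CPM and at 163, 145 and 136 CPM, and these 2 classes overlapped.

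Atf6 was highest in nonclassical monocytes (379, 355 and 426 CPM, log2 1.16, SE 0.073, adjusted p 3.89e-13) and in classical monocytes (370, 358 and 372 CPM, log2 1.07), which overlapped. Cluster 5 had the lowest mean Atf6, at 92.0, 73.4 and 80.7 CPM, and overlapped with T cells and endothelial cells. So B cells held high Eif2ak3 with low Ern1, and NK cells held high Ern1. Monocytes held high Atf6, with Ern1 next after NK cells among the 11 classes. The levels of the 3 genes are of mRNA and say nothing of the activity of the kinases or of ATF6 cleavage.

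**Figure D2:**
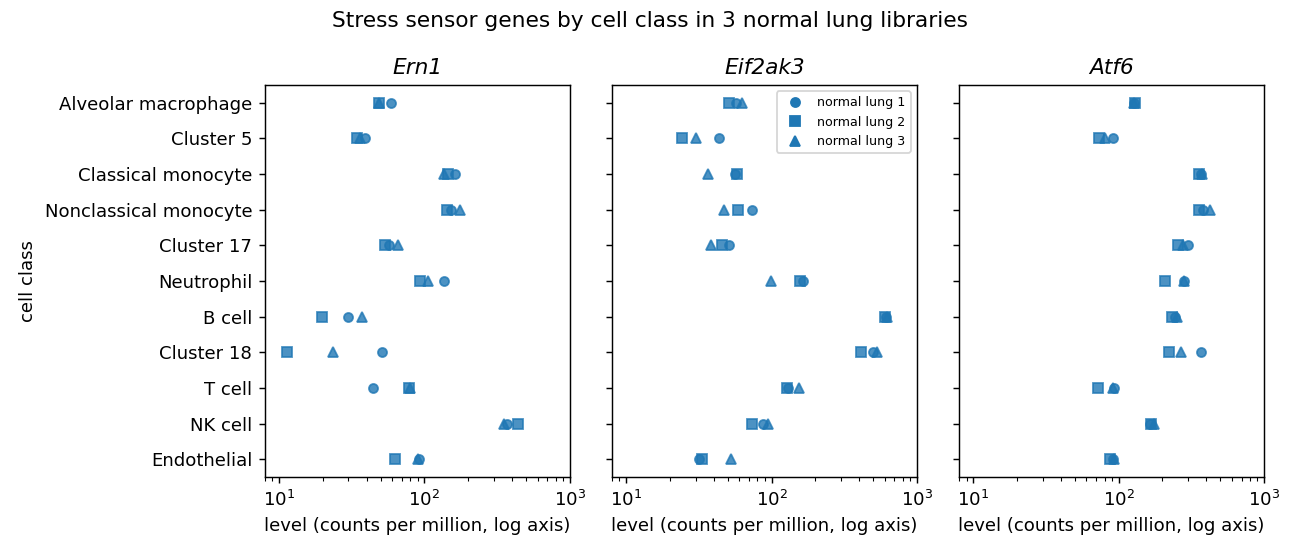
Level of Ern1, Eif2ak3 and Atf6 (horizontal axes, CPM on a log scale) in 11 cell classes (vertical axis), with 1 point for each of the 3 normal lung libraries. Among these 11 classes, Ern1 peaks in NK cells (353 to 442), Eif2ak3 in B cells (600 to 625), and Atf6 in the monocyte classes. Group 2 innate lymphoid cells, which held more Ern1, are not shown.

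Among the transcription factors, Xbp1 was highest in alveolar macrophages, at 303, 334 and 328 CPM (log2 2.21, SE 0.094, edgeR adjusted p 2.24e-17). Its lowest mean was in T cells, at 22.2, 18.6 and 28.9 CPM (log2 -1.95, edgeR adjusted p 7.91e-12). B cells, NK cells and cluster 18 were also lower for Xbp1, and each overlapped with T cells. Ddit3, the gene for the stress factor CHOP, was highest in neutrophils, at 58.6, 63.1 and 73.8 CPM (log2 2.38, SE 0.143, adjusted p 3.72e-14), and this held with no scaling factors (log2 1.71). Atf4 was high in neutrophils too (148, 146 and 154 CPM, log2 0.63), but that sign turned with no scaling factors (-0.05), and endothelial cells overlapped with them (149.8, 151 and 95.02 CPM). Trib3, a pseudokinase induced by ATF4 and CHOP, was nearly absent: 345 UMIs in all 6 libraries together.

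Hspa5 (BiP), the main ER chaperone, was highest in neutrophils, at 555, 547 and 484 CPM (log2 0.99, and 0.31 with no scaling factors), and next in alveolar macrophages, at 476, 453 and 402 CPM (log2 0.71, adjusted p 1.83e-06). That order turned in plain CPM (no scaling factors), at 359, 346 and 328 in neutrophils and 432, 403 and 362 in alveolar macrophages. Its partner Hsp90b1 (GRP94) was highest in alveolar macrophages, at 627, 633 and 565 CPM (log2 1.25, adjusted p 4.24e-12), and lowest in neutrophils, at 83.1, 99.7 and 75.7 CPM (log2 -1.86, adjusted p 1.1e-12). The lectin chaperones Calr and Canx were highest in alveolar macrophages too, at 499, 501 and 501 CPM (log2 1.39) and at 505, 500 and 444 CPM (log2 1.59). Neutrophils had the lowest mean Calr, at 91.8, 81.4 and 92.2 CPM, and overlapped there with cluster 18 (112, 91.2 and 141 CPM). Neutrophils thus held high Hspa5 beside the lowest mean Hsp90b1 and Calr of the 11 classes.

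The foldase Pdia4 was highest in cluster 18, at 199, 217 and 143 CPM (log2 2.27, adjusted p 2.41e-11), and lowest in neutrophils, at 4.59, 3.66 and 7.77 CPM (log2 -3.41, adjusted p 1.11e-11). Sdf2l1, a partner of the BiP co-chaperones, was highest in cluster 17, which carried dendritic cell markers, at 61.3, 92.8 and 82.1 CPM (log2 2.31, edgeR adjusted p 1.9e-11). Its lowest mean was in neutrophils, at 3.57, 3.66 and 2.91 CPM (log2 -2.61), and cluster 18 overlapped with them (3.21, 3.80 and 7.86 CPM). Manf, a secreted ER factor, was lowest in neutrophils as well, at 17.3, 13.7 and 13.6 CPM (log2 -2.26). By contrast Dnajb9, a co-chaperone that binds the IRE1 sensor, was high there, at 93.8, 102 and 105 CPM (log2 1.09, and 0.41 with no scaling factors). Sec61b, a subunit of the translocon, was highest in classical monocytes, at 418, 448 and 418 CPM (log2 1.25, adjusted p 3.08e-13).

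For the degradation genes, Edem1, which targets misfolded glycoproteins, was highest in classical monocytes, at 137, 125 and 133 CPM (log2 0.94). Herpud1, a scaffold of the degradation complex, was highest in cluster 17, at 113, 119 and 126 CPM (log2 0.91). Syvn1, the ubiquitin ligase HRD1, was highest in cluster 18, at 32.1, 26.6 and 43.2 CPM (log2 1.52). Cluster 18 thus held the highest level of both Pdia4 and Syvn1, yet had low Xbp1 and Sdf2l1.

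Between AML and normal lung, nonclassical monocytes were the class in which genes of the response were called. This patrolling monocyte class was tested by edgeR's quasi-likelihood test over 10635 genes with Benjamini-Hochberg adjustment, and 4 of the 30 measured genes were lower in AML lung and 0 higher, at an adjusted p under 0.05. Of all genes tested, 2.98% were lower and 3.96% higher by the same rule. At an unadjusted p under 0.05, 17 of the 30 were lower (11.2% of all genes) and 0 higher (13.5% of all genes); DESeq2 called 8 lower and 0 higher. The median log2 change of the 30 was -0.41, beside 0.01 over all genes, and 25 of 30 were negative. In 13 genes every AML library lay below every normal library (14.7% of all genes), and in 1 gene, Sel1l, every AML library lay above (15.8%).

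The genes called were Hyou1, Pdia3, Sdf2l1 and Creld2. Hyou1 (GRP170), the exchange factor and chaperone that works with BiP, stood at 24.9, 22.7 and 17.4 CPM in normal lung and at 8.85, 5.67 and 12.0 CPM in AML lung. The groups did not overlap, and the log2 change was -1.34 (SE 0.28, adjusted p 0.0255 by edgeR). It lies at chr9:44379490-44392369 on the plus strand (mm10, GENCODE vM21).

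Pdia3 (ERp57), the disulfide isomerase that works with Calr and Canx on glycoproteins, stood at 192, 189 and 184 CPM in normal lung and at 135, 134 and 144 CPM in AML lung. Its groups were the most separate relative to their spread, at 188 ± 3.56 and 138 ± 5.81 CPM (SD, n = 3 each; log2 change -0.45, SE 0.10, edgeR adjusted p 0.0348). Sdf2l1 stood at 21.8, 26.1 and 24.6 CPM in normal lung and at 11.1, 6.16 and 14.8 CPM in AML lung, with no overlap (log2 -1.23, SE 0.29, edgeR adjusted p 0.0393). Creld2, a secreted ER protein with isomerase activity, stood at 16.6, 15.8 and 14.7 CPM against 8.69, 7.30 and 11.3 CPM (log2 -0.82, SE 0.20, edgeR adjusted p 0.0472). Pdia3 lies at chr2:121413775-121438687 on the plus strand, Sdf2l1 at chr16:17130138-17132383 on the minus strand and Creld2 at chr15:88819646-88826683 on the plus strand.

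These calls depend on the libraries kept. Without normal replicate 1, 2 or 3, or without AML replicate 1, 0 genes were called; without AML replicate 2, 3 were, namely Hyou1, Sdf2l1 and Pdia6, while Pdia3 (edgeR adjusted p 0.0605) and Creld2 (0.0914) were not. Without AML replicate 3, 14 were lower (8.07% of all genes), the 4 among them, and 20 at an unadjusted p (15.7% of all genes). The log2 changes kept their sign in every one of these fits: Hyou1 ran from -1.58 to -1.09, Pdia3 from -0.49 to -0.43, Sdf2l1 from -1.49 to -0.93 and Creld2 from -0.97 to -0.68. With each cell gated singly by its own markers, 2 genes were called, Hyou1 and Pdia3.

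Next after the called genes came Pdia6, another disulfide isomerase, at 81.0, 76.8 and 69.5 CPM in normal lung and 46.1, 31.03 and 55.8 CPM in AML lung (log2 -0.79, edgeR adjusted p 0.0507). Dnajb9 followed, at 55.3, 52.9 and 46.8 CPM against 19.2, 19.4 and 40.0 CPM (log2 -1.02, adjusted p 0.0583). Neither group pair overlapped, and both miss the threshold.

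By role, the genes were counted with no test between roles; of all genes tested, 49.2% were negative and 14.7% had every AML library below. Of 10 chaperones and foldases, 9 were negative, 5 had groups that did not overlap and 2 were called (median log2 -0.58). Of 6 co-chaperones and secreted factors, 6 were negative, 5 did not overlap and 2 were called (median -0.66). The 3 sensors were negative with 0 not overlapping (median -0.22), as were the 3 transcription factors and effectors with 1 not overlapping (median -0.34). Of 6 degradation genes, 3 were negative, 2 did not overlap on the lower side and 0 were called by edgeR (median 0.08). Of the 2 translocon genes 1 was negative.

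The most abundant chaperones showed a wide spread over AML libraries. Hspa5 stood at 371, 341 and 329 CPM in normal lung and at 214, 155 and 352 CPM in AML lung (log2 -0.54, edgeR adjusted p 0.232). AML replicate 3 reached the normal range and the other AML libraries fell well below it. Hsp90b1 (312, 279 and 246 against 157, 128 and 247 CPM, adjusted p 0.115) and Calr (288, 276 and 254 against 167, 108 and 257 CPM, adjusted p 0.186) had the same layout. Over the 30 genes, 21 were below the lowest normal library in both AML replicates 1 and 2, 17 were in AML replicate 3, and AML replicate 3 was the highest AML library for 22. Canx varied less, at 202, 189 and 172 against 173, 162 and 172 CPM.

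The sensors and factors had smaller changes, none called. Xbp1 stood at 164, 153 and 138 CPM in normal lung and at 113, 99.6 and 133 CPM in AML lung, without overlap (log2 -0.40, edgeR adjusted p 0.111). Eif2ak3 stood at 68.5, 54.7 and 43.7 against 31.7, 35.6 and 45.7 CPM, overlapping in AML replicate 3 (log2 -0.57). Ern1, Atf6, Atf4 and Ddit3 overlapped between the groups, with log2 changes from -0.34 to -0.21. Above 0 were Herpud1 (64.8, 61.2 and 66.1 against 80.1, 62.1 and 86.4 CPM, log2 0.25), Sel1l, the partner of Syvn1 (97.6, 102 and 84.7 against 111, 116 and 106 CPM, log2 0.24), Derl2, Ppib and Sec61b, none of which was called.

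**Figure D3:**
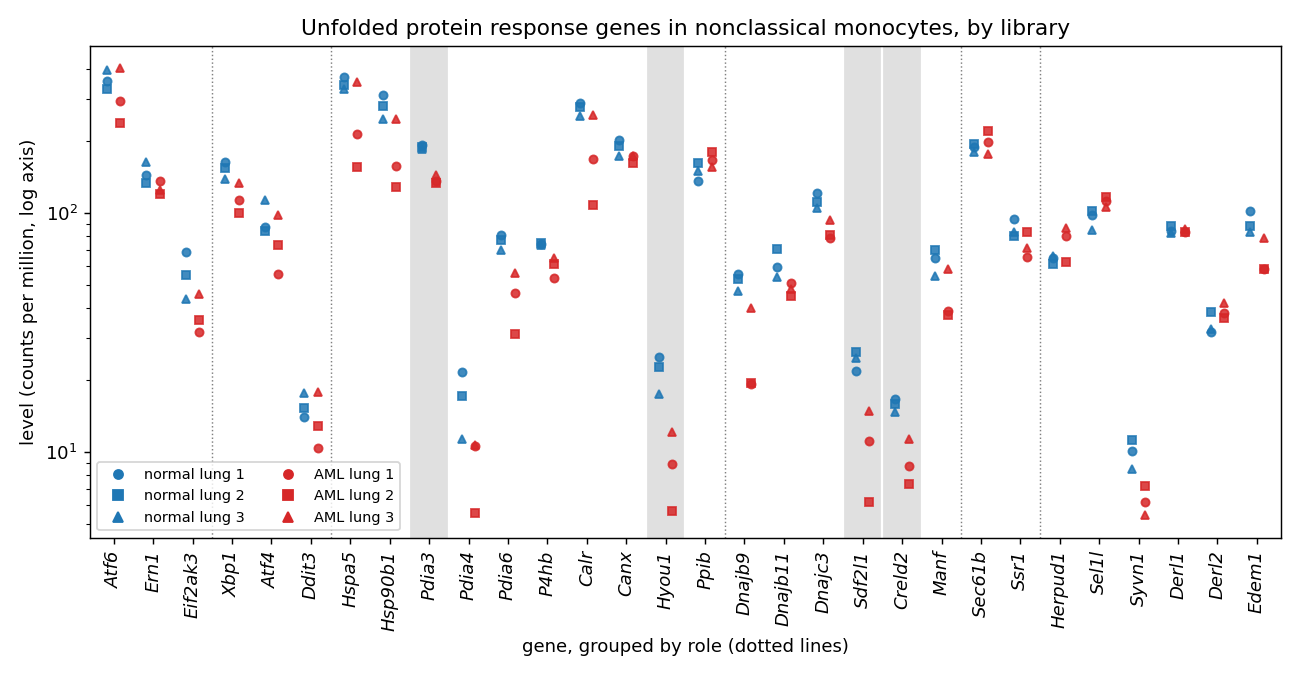
Level (vertical axis, CPM on a log scale) of 30 genes in nonclassical monocytes, 1 point per library, grouped by role along the horizontal axis; grey bands mark the 4 genes with an adjusted p under 0.05. AML points lie under the normal points for most chaperones and co-chaperones and beside them for the degradation genes.

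Other markers moved with these changes inside the nonclassical monocyte class. The summed level of its own 8 markers was 5091 to 5939 CPM in normal lung and 5067 to 6398 CPM in AML lung. Of the 9 alveolar macrophage markers, 3 were measured and all 3 were higher in AML lung: Pparg, Fabp4 (also in the nonclassical list) and Marco. The list's sum was 1094 to 1120 CPM in normal lung and 1756 to 2038 CPM in AML lung, and Siglecf, Ear1, Fabp1, Car4, Krt79 and Cidec were at or under 2.53 CPM in every library. The sum of the endothelial markers went from 297 to 415 CPM up to 1254 to 1420 CPM, and this rise came from Pecam1 alone. Calcrl was lower in AML lung, at 65.0, 53.9 and 68.9 against 30.3, 24.4 and 38.7 CPM (log2 -0.98, edgeR adjusted p 0.0196). Cdh5, Cldn5, Kdr and Tek were at or under 1.77 CPM. Neutrophil markers summed to 197 to 227 CPM in normal lung and to 171, 142 and 513 CPM in AML lung, and haemoglobin and other erythroid markers reached 592 CPM in AML replicate 3 against at most 29.7 CPM in the other libraries. The part of these markers in the changes above was not tested.

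The clusters that make up this class were shared unequally between the groups. Cluster 8 held 334, 601 and 691 of its cells in normal lung and 126, 34 and 532 in AML lung, and cluster 10, led by Il10, Spic and Mmp14, held 2080, 4240 and 673 in AML lung but 33 and 39 in normal replicates 2 and 3. Cluster 9 held 65, 742 and 3920 cells in AML lung and 25 and 167 in normal replicates 2 and 3, so that most AML replicate 3 cells lay there. Within cluster 8, plain CPM (no scaling factors) of Hyou1 were 25.3, 22.7 and 16.3 in normal lung and 8.3, 18.1 and 9.1 in AML lung, so that AML replicate 2, with 34 cells, overlapped. Pdia3 in cluster 8 was 202, 192 and 185 against 119, 175 and 139 plain CPM, and Sdf2l1 was 22.4, 26.8 and 24.7 against 11.9, 18.1 and 15.5, both without overlap. In cluster 8, the AML mean was lower for 29 of the 30 genes (53.0% of all genes), and the groups did not overlap for 9 lower (10.5%) and 0 higher genes (6.75%). In cluster 9 the mean was lower for 23 (44.0%), with 6 lower (10.5%) and 1 higher (14.9%) not overlapping. There Pdia6 overlapped, at 49.6 and 15.03 plain CPM in normal lung and 34.5, 26.7 and 51.8 in AML lung, and Sdf2l1 overlapped too. In cluster 10 the mean was lower for 24 (44.9%), with 12 lower (13%) and 1 higher (22.8%) not overlapping. Sdf2l1 overlapped in cluster 10, at 18.8 and 38.5 plain CPM in normal lung and 10.9, 6.12 and 21.7 in AML lung. Hspa5 overlapped in clusters 8 and 10, through AML replicate 3. Normal replicates 2 and 3 held only 60526 and 199598 UMIs in cluster 9 and 212587 and 181667 UMIs in cluster 10. AML replicate 2 held only 165508 UMIs in cluster 8, and AML replicate 1 only 202679 in cluster 9. The values of these libraries for genes of low level, such as Hyou1, Pdia6 and Sdf2l1, thus rest on few counts in those clusters. This split was made after seeing the data and gives values without a test.

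**Figure D4:**
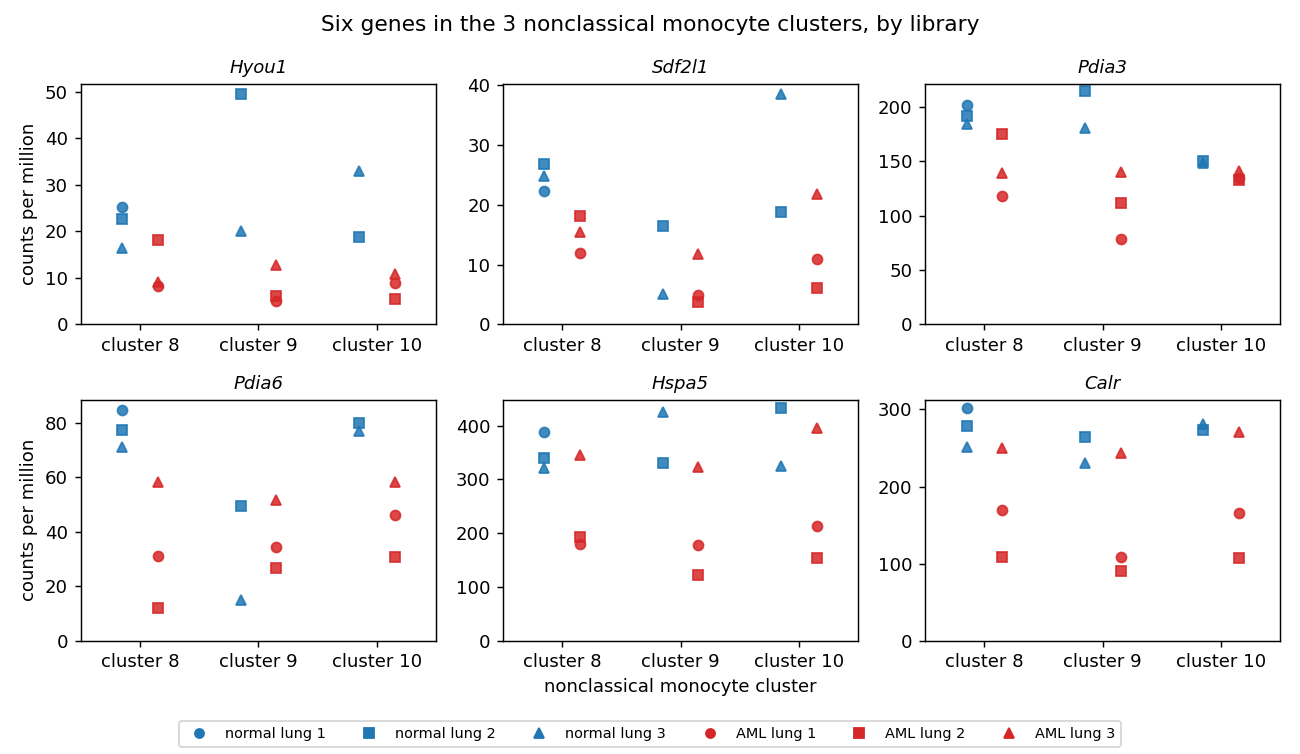
Plain CPM (vertical axes) of Hyou1, Sdf2l1, Pdia3, Pdia6, Hspa5 and Calr in the 3 nonclassical monocyte clusters (horizontal axes), 1 point per library with at least 20 cells. AML points lie mostly below normal points in clusters 8 and 10, and the groups overlap for Pdia6, Sdf2l1 and Calr in cluster 9. They also overlap for Hyou1 and Hspa5 in cluster 8 and for Sdf2l1 and Hspa5 in cluster 10. The normal libraries held few UMIs in clusters 9 and 10, as did AML replicate 2 in cluster 8 and AML replicate 1 in cluster 9.

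Other genes of the pathway, from lists that do not hold the 31, had 0 to 2 genes called per list in nonclassical monocytes, beside 2.98% lower and 3.96% higher of all genes. Of 20 measured genes of ER folding and glycosylation, 1 was lower: Rpn1, an oligosaccharyltransferase subunit, at 46.0, 42.8 and 38.8 CPM against 29.6, 26.2 and 24.1 CPM (log2 -0.67, edgeR adjusted p 0.0245), with a list median of -0.24. At an unadjusted p, 7 of these 20 were lower (11.2% of all genes) and 1 higher (13.5%). By edgeR 0 of 17 translocon and signal peptidase genes (4 higher and 1 lower at an unadjusted p, median 0.02), 0 of 15 degradation genes (2 and 2, median -0.02) and 0 of 15 further sensors and regulators (1 and 2, median -0.03) were called, where 13.5% of all genes were higher and 11.2% lower at an unadjusted p. Of 19 targets of ATF4 and the integrated stress response, 2 were higher: Slc7a11, the cystine transporter, at 18.8, 31.4 and 31.6 against 118, 160 and 104 CPM (log2 2.23, adjusted p 0.00234), and Sqstm1 (p62), at 175, 173 and 214 against 314, 348 and 294 CPM (log2 0.77, adjusted p 0.0123). At an unadjusted p, 5 of that list were lower and 3 higher, and its median was -0.05. The 12 measured cytosolic heat shock genes had 0 called by edgeR, 2 lower at an unadjusted p and a median of -0.34, with the stress-inducible Hspa1a at log2 -2.19 (adjusted p 0.118). Of 15 immediate early genes 1 was lower, Zfp36, an mRNA decay factor (765, 720 and 944 against 438, 462 and 540 CPM, log2 -0.75, adjusted p 0.0212). At an unadjusted p, 4 of the 15 were lower and 1 higher, with a list median of -0.31.

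In classical monocytes, the inflammatory monocytes of blood, edgeR called 0 of the 30 genes, where 0.84% of all genes were lower and 1.18% higher. At an unadjusted p, 5 were lower (9.31% of all genes) and 3 higher (11.7%), and DESeq2 called 2 lower, Atf6 and Pdia4. Without AML replicate 3, edgeR called 5 lower (4.58% of all genes), with 11 lower at an unadjusted p (13.6%) and a median log2 change of -0.23 in place of -0.09. Every AML library lay below every normal one for 3 genes (12.9% of all genes) and above for 4 (14.7%). The smallest p was that of Pdia4, at 27.8, 36.2 and 22.3 CPM in normal lung and 15.6, 13.7 and 18.5 CPM in AML lung (log2 -0.86, edgeR adjusted p 0.0682). Atf6 followed at 345, 336 and 352 against 222, 226 and 295 CPM (log2 -0.48, adjusted p 0.0983), and Edem1 at 128, 117 and 126 against 80.4, 91.3 and 106 CPM (log2 -0.42, adjusted p 0.115).

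Of the other low-p genes in classical monocytes, Ppib, a proline isomerase of the ER, and Sec61b had higher values in every AML library. Ppib stood at 206, 273 and 236 against 323, 319 and 295 CPM (log2 0.39, edgeR adjusted p 0.141), and Sec61b at 391, 421 and 396 against 516, 619 and 434 CPM (log2 0.38, adjusted p 0.182). Hyou1 overlapped, at 22.2, 26.9 and 17.3 against 10.6, 11.3 and 18.4 CPM (log2 -0.70, adjusted p 0.155). Outside the 31, Slc7a11 (48.3, 66.5 and 65.9 against 125, 203 and 134 CPM, log2 1.36, adjusted p 0.0215), the oxidative stress factor Nfe2l2 (471, 491 and 556 against 787, 698 and 815 CPM, log2 0.60, adjusted p 0.0442) and the early gene Ier3 (25.01, 31.04 and 37.1 against 50.1, 119 and 141 CPM, log2 1.76, adjusted p 0.0312) were higher. Markers of immature myeloid cells summed to 14.8 to 16.6 CPM in normal lung and 70.6 to 169 CPM in AML lung within this class, and their part was not tested. Most AML replicate 3 cells of the class lay in cluster 24 and most normal cells in cluster 7.

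The change in nonclassical monocytes was set against that in classical monocytes in a joint edgeR fit with library as a block. It was lower for 3 of the 30 genes (1.90% of all genes) and higher for 0 (1.90%), with 15 lower (8.25%) and 0 higher (8.55%) at an unadjusted p, 26 negative and a median difference of -0.21. For P4hb, the beta subunit of prolyl hydroxylase and a disulfide isomerase, the difference was -0.61 (SE 0.114, edgeR adjusted p 0.0118). Nonclassical monocytes stood at 74.1, 74.6 and 73.1 against 53.2, 61.1 and 64.4 CPM for P4hb (log2 -0.31). Classical monocytes stood at 120, 136 and 130 against 146, 175 and 156 CPM (log2 0.31). For Sdf2l1 the difference was -1.33 (SE 0.275, adjusted p 0.0199), with classical monocytes at 24.1, 63.5 and 34.7 against 45.8, 32.3 and 44.6 CPM. For Pdia6 it was -0.76 (SE 0.190, adjusted p 0.0480), with classical monocytes at 82.6, 142 and 73.6 against 104, 68.3 and 115 CPM. Normal replicate 2 was high for both Sdf2l1 and Pdia6 in classical monocytes. Calr missed the threshold (-0.51, adjusted p 0.0565). Without normal replicate 1 or 3, 0 of the 3 were called (P4hb adjusted p 0.0664 and 0.0502, Sdf2l1 0.103 and 0.0999, Pdia6 0.224 and 0.195). Pdia6 was also lost without AML replicate 1 (0.0965) or 2 (0.118), and Sdf2l1 without AML replicate 2 (0.0699), while without AML replicate 3, 8 genes were called.

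Against the other classes, edgeR called no difference for any of the 31 genes, lower or higher. At an unadjusted p, against alveolar macrophages the change in nonclassical monocytes was lower for 4 genes (8.85% of all genes; 0.524% after adjustment) and higher for 2 (10.6%; 0.986%). Against neutrophils it was lower for 11 (5.38%; 0.0088% after adjustment) and higher for 0 (4.34%; 0.0704%). Against B cells it was lower for 7 (4.25%; 0.0%) and higher for 1 (4.82%; 0.0245%). T cells gave 11 lower (4.64%; 0.0%) and 0 higher (3.79%; 0.0161%), and NK cells 9 lower (5.81%; 0.0%) and 1 higher (4.83%; 0.0168%). So the nonclassical monocyte calls are not shown to differ from the change in those 5 classes.

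**Figure D5:**
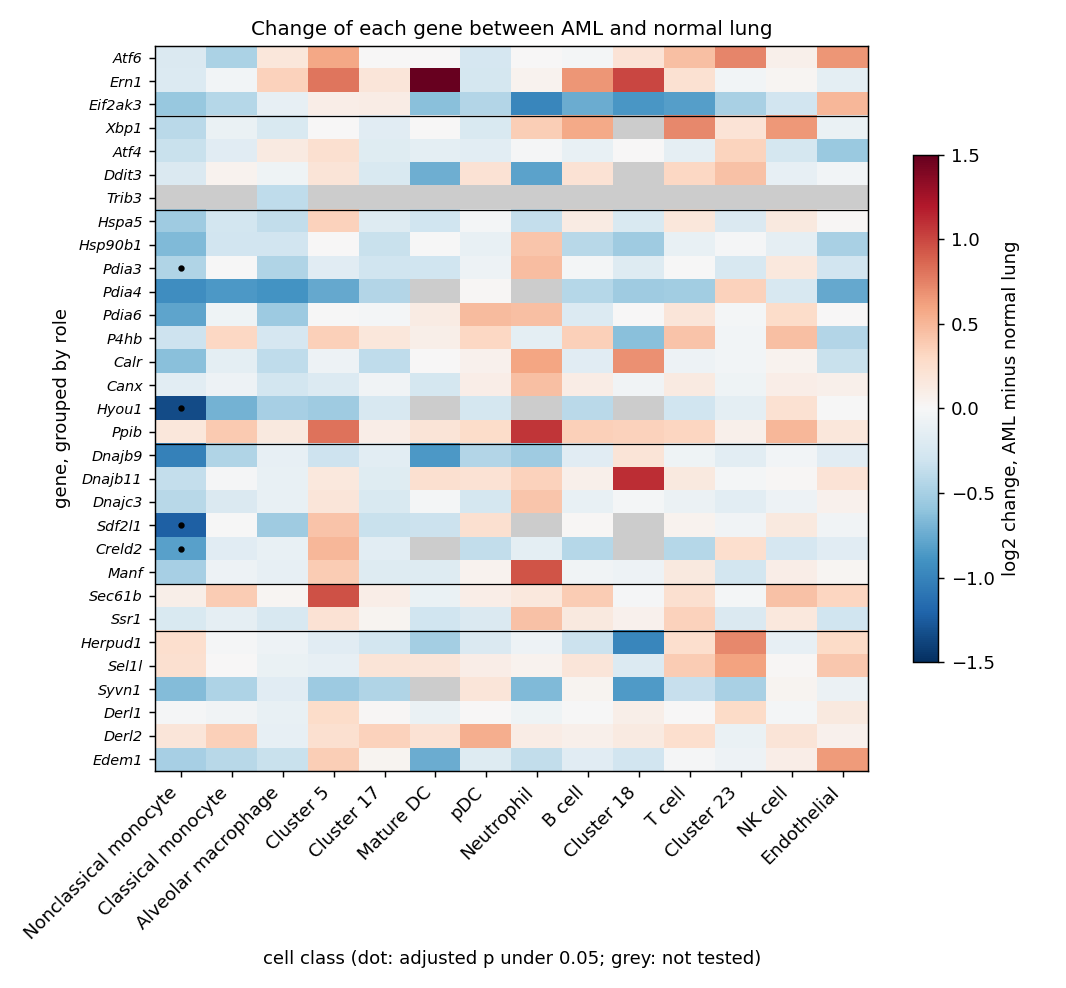
Log2 change of each gene (vertical axis, grouped by role) between AML and normal lung in 14 cell classes (horizontal axis); dots mark an adjusted p under 0.05 and grey cells were not tested. The 4 dots, at Hyou1, Pdia3, Sdf2l1 and Creld2, are all in nonclassical monocytes, and Eif2ak3 is blue in neutrophils, B cells and T cells.

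In alveolar macrophages, the resident phagocytes of the airspaces, edgeR called 0 of 31 genes and 0.0% of all genes, with 4 lower (4.91% of all genes) and 0 higher (5.57%) at an unadjusted p, and DESeq2 called 1 lower, Pdia4. Every AML library lay below every normal one for 9 genes (9.41% of all genes) and above for 0 (7.81%), with a median of -0.13. Leaving out 1 library in turn gave 2 to 10 lower at an unadjusted p, the 10 without AML replicate 3 (6.87% of all genes; median -0.27). Pdia4 stood at 114, 98.3 and 84.1 CPM in normal lung and 63.8, 40.8 and 53.8 CPM in AML lung (log2 -0.90, edgeR adjusted p 0.457). Pdia3 stood at 380, 374 and 315 against 294, 232 and 255 CPM (log2 -0.45, adjusted p 0.457), and Canx at 450, 449 and 405 against 392, 348 and 339 CPM (log2 -0.27, adjusted p 0.467). Their groups did not overlap. The same held for Ssr1, a translocon-associated subunit (92.9, 87.3 and 91.3 against 75.4, 74.7 and 79.5 CPM), Pdia6 (167, 169 and 151 against 135, 68.8 and 128 CPM) and Edem1 (108, 105 and 105 against 83.3, 67.8 and 101 CPM), with adjusted p from 0.467 to 0.491. Trib3 passed the filter on low counts in this class alone, at 1.84, 1.59 and 1.36 against 1.10, 1.98 and 0.862 CPM.

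In neutrophils, edgeR called 0 of 27 genes (0.0127% of all genes higher and 0.0% lower), with 3 lower (5.4%) and 1 higher (7.88%) at an unadjusted p and 0 by DESeq2. Groups did not overlap for 4 lower (9.84%) and 2 higher genes (9.08%). With AML replicate 3 left out, 5 were lower at an unadjusted p (7.94% of all genes) and the median turned from 0.05 to -0.15. Eif2ak3 stood at 107, 106 and 67.7 CPM in normal lung and 58.0, 37.3 and 47.1 CPM in AML lung (log2 -0.98, edgeR adjusted p 0.245). Ddit3 stood at 37.8, 42.6 and 50.4 against 24.5, 27.5 and 22.9 CPM (log2 -0.80, adjusted p 0.258). Dnajb9 (60.5, 68.6 and 71.7 against 44.4, 43.9 and 49.8 CPM) and Hspa5 (358, 369 and 330 against 274, 250 and 305 CPM) were also lower in every AML library (adjusted p 0.348 and 0.43). Ppib was higher in every AML library, at 39.1, 60.5 and 42.5 against 63.8, 97.1 and 134 CPM (log2 1.07, adjusted p 0.275), as was Ssr1 (29.6, 29.7 and 31.2 against 31.6, 41.1 and 49.2 CPM, adjusted p 0.437). Markers of late neutrophil precursors summed to 381 to 649 CPM in normal lung and 1166 to 1461 CPM in AML lung in this class. Erythroid markers summed to 22391 and 12747 CPM in normal replicates 2 and 3 and to 2728 CPM in AML replicate 3, against at most 0.990 CPM in the other libraries. The neutrophil markers themselves stood at 39169 CPM in AML replicate 3 and at 65712 to 103850 CPM elsewhere, and nonclassical monocyte markers at 2182 CPM there against at most 609 CPM. The part of these markers was not tested.

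In B cells, edgeR called 0 of 30 genes (0.0% of all genes), with 1 lower (3.73%) and 1 higher (5.72%) at an unadjusted p and 0 by DESeq2. Without AML replicate 3, 9 were lower at an unadjusted p (7.13% of all genes), 26 of 30 were negative in place of 16, and the median log2 change was -0.30 in place of -0.02. Eif2ak3, high in these cells, stood at 634, 626 and 654 CPM in normal lung and 477, 320 and 348 CPM in AML lung (log2 -0.74, edgeR adjusted p 0.511), the only gene with every AML library below (8.71% of all genes). Ppib was the only gene with every AML library above (8.69%), at 118, 155 and 127 against 166, 166 and 180 CPM (log2 0.35, adjusted p 0.511). Pdia4 (83.8, 70.2 and 79.6 against 76.4, 38.1 and 60.1 CPM), Creld2 (12.98, 12.3 and 20.3 against 10.5, 10.1 and 13.3 CPM), Sec61b (119, 123 and 146 against 148, 124 and 230 CPM) and Herpud1 (96.8, 103 and 117 against 92.8, 58.1 and 103 CPM) overlapped.

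In T cells, edgeR called 0 of 30 genes (0.0% of all genes), with 2 lower (3.76%) and 2 higher (4.75%) at an unadjusted p and 0 by DESeq2. Without AML replicate 3, 7 were lower at an unadjusted p (6.01% of all genes), 21 of 31 were negative and the median turned from 0.14 to -0.17. Groups did not overlap for 3 lower (9.15%) and 2 higher genes (7.67%). Eif2ak3 stood at 136, 136 and 163 CPM in normal lung and 92.6, 57.5 and 94.9 CPM in AML lung (log2 -0.83, edgeR adjusted p 0.56), and Pdia4 at 43.0, 41.4 and 35.2 against 34.1, 22.1 and 27.0 CPM (log2 -0.52, adjusted p 0.56). Sel1l (49.99, 44.3 and 50.1 against 61.0, 57.3 and 69.8 CPM) and Ppib (147, 177 and 148 against 196, 193 and 201 CPM) were higher in every AML library, both at an adjusted p of 0.56. Sec61b (162, 207 and 170 against 200, 197 and 241 CPM) and Creld2 (9.37, 12.2 and 10.2 against 5.496, 7.74 and 10.5 CPM) overlapped.

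In NK cells, edgeR called 0 of 30 genes (0.0% of all genes), with 0 lower (5.09%) and 2 higher (7.41%) at an unadjusted p and 0 by DESeq2. With AML replicate 3 left out, 3 were lower at an unadjusted p (7.64% of all genes) and the median turned from 0.06 to -0.06. Every AML library lay above every normal one for 3 genes (9.51%) and below for 0 (9.49%). Ppib stood at 175, 223 and 185 CPM in normal lung and 309, 283 and 232 CPM in AML lung (log2 0.50, edgeR adjusted p 0.368). Sec61b stood at 156, 227 and 184 against 252, 264 and 252 CPM (log2 0.44, adjusted p 0.368), and P4hb at 43.9, 67.7 and 65.1 against 73.0, 71.5 and 98.1 CPM (log2 0.46, adjusted p 0.424). Xbp1 stood at 30.9, 38.1 and 34.8 against 32.4, 32.4 and 97.7 CPM: its log2 change of 0.65 (adjusted p 0.544) came from AML replicate 3 and was -0.10 without it. Atf4 (109, 121 and 131 against 92.5, 89.0 and 121 CPM) and Ssr1 (61.2, 82.8 and 71.2 against 77.6, 83.9 and 79.2 CPM) overlapped.

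AML replicate 3 carried markers of other cells in each lymphocyte class. The summed neutrophil markers reached 5413 CPM in its B cells, 6124 CPM in its T cells and 6932 CPM in its NK cells, while no other library exceeded 799 CPM. Their part in the values of AML replicate 3 was not tested.

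Across classes, and with none of these changes called, Eif2ak3 had all its AML values under all its normal values in neutrophils, B cells and T cells, and Ppib was higher in every AML library in classical monocytes, neutrophils, B cells, T cells and NK cells. In the 7 smaller classes edgeR called 0 genes of the response, as did DESeq2. Cluster 5 had 1 lower (5.41% of all genes; 0.0122% after adjustment) and 3 higher (9.41%; 0.719%) at an unadjusted p, and cluster 18 had 1 lower (5.31%; 0.234%) and 1 higher (4.94%; 0.938%). Cluster 23 had 0 lower (4.33%; 0.0%) and 2 higher (7.39%; 0.0%), and endothelial cells 1 lower (7.22%; 0.0%) and 1 higher (9.36%; 0.0917%). The other 3 had 0 in either direction: cluster 17 beside 5.79% lower and 5.8% higher of all genes, mature dendritic cells beside 2.44% and 1.48%, and plasmacytoid dendritic cells beside 3.55% and 4.1%, with 0.0% after adjustment in each. In fits that leave out AML replicate 3, the genes lower at an unadjusted p were 5 in cluster 17 (7.02% of all genes), 4 in cluster 18 (6.47%), 3 in endothelial cells (6.85%), 1 in cluster 5 (4.91%), 1 in mature dendritic cells (8.66%), 1 in plasmacytoid dendritic cells (4.25%) and 0 in cluster 23 (4.68%). In cluster 18, edgeR then called 1 lower (0.689% of all genes).

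Plasma cells were too few to form a cluster and were gated singly by their markers, giving 30 cells (185317 UMIs) in normal replicate 3 and 44 cells (81721 UMIs) in AML replicate 3, and 1 to 6 in the others. With 1 library each there is no test, and the 95% intervals cover counting error only, with the B cell class taken as fixed. The gated plasma cells were not taken out of that class. Plasma cell markers summed there to 1824 CPM in normal replicate 3 and 926 CPM in AML replicate 3, against 425 to 768 CPM in the other libraries. The ratios are thus not against a class cleared of plasma cells. In normal replicate 3, 26 of the 31 genes had an interval above the plain CPM of the B cell class of the same library and 1, Eif2ak3, below it (0.572 times, 0.446 to 0.723), where 13.6% of the genes tested in B cells had an interval above and 17.7% below. Sdf2l1 was 25.9 times the B cell level (20.1 to 32.9), Hsp90b1 15.1 times (14.1 to 16.2), Creld2 14.2 times (10.7 to 18.5), Manf 13.5 times (11.6 to 15.6), Xbp1 11.01 times (8.55 to 14.0) and Hspa5 8.17 times (7.26 to 9.16). In AML replicate 3, 23 of the 31 had an interval above (5.23% of the genes tested in B cells) and 0 below (7.05%): Sdf2l1 was 9.12 times (5.11 to 15.05), Hsp90b1 5.64 times (4.71 to 6.70) and Hspa5 1.99 times (1.49 to 2.61). The B cell class of AML replicate 3 held 3941 CPM of B cell markers and that of normal replicate 3 8797 CPM, so the ratios of the libraries have different bases and were not compared.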

How the data were processed

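The authors deposited raw UMI counts (whole numbers, 1 matrix for each of 6 libraries), made with Cell Ranger 7.0.0 on mm10, per the submitters' processing notes. Whether introns were included was not given in the sources used here. All 31 genes and the lists were chosen with earlier results of these data known. Of 73095 barcodes, 71634 with at least 200 genes, 500 UMIs and at most 10% mitochondrial UMIs were kept. Scrublet marked 2034 doublets, left out; where its own threshold marked 0% (normal and AML replicate 3), 0.209, the median of the remaining libraries' thresholds, was applied. Cells were clustered (scanpy 1.11.5, 2000 variable genes without the 31, 30 components, Leiden resolution 1). Clusters were named where at least 3 markers of 1 type were raised and no second type scored 0.6 of the best or more. A cluster stayed unnamed if another type had more markers among its 10 leading genes (cluster 18, eosinophil markers) or if cycling genes led it (cluster 23). The same held for shallow clusters with no marker among the leading genes and for clusters of mostly doublets. These naming thresholds, the Scrublet threshold, the role groups, the naming of levels, the gated plasma cells and the printed promoters were chosen after seeing the data. A cluster of mostly doublets and those with too few cells were left out.

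Counts were summed per library and class with at least 20 cells and tested with edgeR 4.0.16 (TMM, filterByExpr, quasi-likelihood F test, Benjamini-Hochberg over all genes, threshold 0.05) in R 4.3.3, in each class between the groups, between classes of normal lung, and for the difference of the AML change between classes, the last 2 with library as a block. DESeq2 1.42.0 was an alternative, and others are named in the closing section. An SE is the log2 change divided by the root of F. The named genes are those past the threshold, the 6 of smallest p in each of 7 main classes, and up to 4 per list past the threshold. The tests were checked on simulated data. For the AML comparison in nonclassical monocytes (10550 genes), 54.1% of 2-fold and 100% of 4-fold changes were recovered. For the difference from classical monocytes (11330 genes), these shares were 10% and 82%. The simulation gave every gene a dispersion of 0.05 and no library its own deviation. The real libraries differ more than that in places, so these shares are not the power of the real comparisons. The libraries of 1 group were compared over 296 to 304 genes per pair, cell type markers among them, with counts summed over classes. They differed by more than sampling noise (chi-square per degree of freedom 201 to 900). Such counts also follow the mix of cell types. So no pair of files agreed within sampling noise over these genes, which does not show that the libraries come from separate animals.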

Additional observations from a re-analysis of the deposited data

Results flagged for a closer look

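The change between AML and normal lung differed between nonclassical and classical monocytes for 3 genes, by edgeR's test of the difference itself with library as a block. For P4hb the log2 difference was -0.61 (adjusted p 0.0118), for Sdf2l1 -1.33 (adjusted p 0.0199) and for Pdia6 -0.76 (adjusted p 0.0480). Each was lower in nonclassical monocytes, and none was called without normal replicate 1 or without normal replicate 3. Pdia6 was also not called without AML replicate 1 (adjusted p 0.0965) or 2 (0.118), nor Sdf2l1 without AML replicate 2 (0.0699), by edgeR. Classical monocytes of normal replicate 2 were the highest normal library for all 3 genes, at 136 CPM for P4hb, 63.5 CPM for Sdf2l1 and 142 CPM for Pdia6, and without that library the differences were -0.65, -1.70 and -1.05.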

How the results depend on the processing

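Of the counts of genes called, 513 comparisons with an alternative stayed within 1.5 times and on their side, 26 had more calls and 23 fewer. In nonclassical monocytes, 4 genes were lower, against 10 with no filter on low counts, 8 by DESeq2, 2 with cells gated singly and 0 to 14 leaving out a library. In alveolar macrophages DESeq2 called 1 lower. In classical monocytes, lower calls were 3 with no filter, 2 by DESeq2 and 0 to 5 leaving out a library, and higher calls 0 to 1. With no filter, neutrophils had 1 higher and 1 lower and cluster 5 had 2 higher; leaving out a library gave cluster 5 0 to 4 higher and cluster 18 0 to 1 lower. Leaving out a library, the log2 change of Xbp1 in NK cells ran from -0.10 (without AML replicate 3, reversed) to 0.92. The difference from classical monocytes was lower for 0 to 8 genes leaving out a library, from alveolar macrophages and neutrophils 0 to 1 each, and from NK cells 0 to 3. The cause of these shifts was not tested.

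For the levels in normal lung, classical monocytes were lower for 4 genes with RLE size factors, 4 with no scaling factors (an alternative added after seeing the data) and 1 to 3 leaving out a library. Cluster 17 was lower for 2 with RLE factors and 1 to 3 leaving out a library, cluster 18 lower for 7 to 13 and cluster 5 higher for 5 to 15. Endothelial cells were higher for 9 with RLE factors, 9 with no factors, 3 with all 6 libraries, 8 gated singly and 2 to 6 leaving out a library. Neutrophils were higher for 3 with no factors. NK cells were higher for 8 with no factors and 1 to 3 leaving out a library, and lower for 4 and 4 to 12. With all 6 libraries nonclassical monocytes were higher for 8 and lower for 5. T cells were higher for 3 with no factors and 5 gated singly.

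With the replicate number as a block, 6 genes were lower in nonclassical monocytes (Pdia3, Hyou1, Pdia6, Dnajb9, Creld2 and Sdf2l1), and 0 were called in the other classes. Over 10 classes, the correlations of same-numbered libraries ran from 0.07 to 0.63 for number 1, from -0.0968 to 0.0998 for number 2 and from 0.07 to 0.65 for number 3. The normal library correlated best with the AML library of its own number in 8, 2 and 10 of the classes. Since number 2 did not exceed 0.1 in any class, the numbers were not taken to pair the samples, and for 1 and 3 they share a deviation as a hint from the data. Depth limits genes as low as Trib3.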
